A study of Mus musculus with 4 samples.

Results

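The primary, or azurophil, granule genes described here are Mpo, Elane, Prtn3, Ctsg, Ms4a3, Plac8, Nkg7 and Srgn. They are 8 of the 52636 gene lines in the count table and were matched from Ensembl IDs by symbol. All 8 are protein-coding and all 8 passed the filter on low counts, which kept 11444 genes. RNA came from mouse Hoxb8 cells, as the labels call the line; the homeobox gene Hoxb8 is commonly used to hold myeloid precursors at an immature stage in culture. In one group were Hoxb8 cells carrying an empty vector (EV, n = 2 libraries) and in the other Hoxb8 cells expressing DNMT3AR882H (R882H, n = 2 libraries), a recurrent substitution in the DNA methyltransferase DNMT3A in acute myeloid leukaemia. The labels name no other allele, agent or time, and they do not say whether a group was 1 clone, which mice the cells came from, or whether the replicates were grown apart. All p-values therefore rest on the spread among these 4 libraries, which may be technical.

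Primary granules are the first granules that a developing neutrophil makes, at the promyelocyte stage, and their proteins are stored for release or for delivery to the phagosome. Myeloperoxidase uses hydrogen peroxide to make hypochlorous acid, while neutrophil elastase, proteinase 3 and cathepsin G are related serine proteases that are stored as active enzymes after cathepsin C trims them. Serglycin is the proteoglycan that holds such basic proteins in the granule. The transcription factors PU.1, C/EBPα, MYB, RUNX1 and GFI1 are known for controlling these genes in granulocyte-monocyte progenitors.

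The myeloperoxidase gene and the 3 serine protease genes share one run of letters in front of their RefSeq start, and are shown for that reason. Each window below is written on the gene's own strand, taken from RefSeq promoters (GRCm38.p6, the assembly of mm10), and holds no base of an exon that GENCODE M21 annotates for the gene; capitals mark AGGAAGT, a sequence that PU.1 can bind.
Mpo: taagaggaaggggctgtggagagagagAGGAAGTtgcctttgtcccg
Elane: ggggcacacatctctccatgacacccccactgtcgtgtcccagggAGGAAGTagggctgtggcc
Prtn3: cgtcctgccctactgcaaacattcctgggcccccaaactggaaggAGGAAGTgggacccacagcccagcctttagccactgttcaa
Ctsg: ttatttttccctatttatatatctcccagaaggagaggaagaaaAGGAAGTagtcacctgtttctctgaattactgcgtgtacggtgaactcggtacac

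The windows are chr11:87793534-87793580 (plus strand) for Mpo, chr10:79886183-79886246 (plus) for Elane, chr10:79879528-79879613 (plus) for Prtn3 and chr14:56102726-56102824 (minus) for Ctsg. The Prtn3 window lies inside the gene as GENCODE M21 draws it, since that annotation starts Prtn3 further upstream, at 79874476. All 8 genes matched the promoter table, with 10 promoters of 300 bases (250 before and 50 after the start). AGGAAGT, searched on both strands, was in 4 of the 10, those of Mpo, Elane, Prtn3 and Ctsg, and in 9.35% of all 32851 promoters in the table. It lay 223 bases before the RefSeq start in Mpo, 206 in Ctsg, 94 in Prtn3 and 84 in Elane. GENCODE M21 starts Mpo at 87793581 and Elane at 79886247, directly after their windows, so the match is nearer to those starts. Other letters were also searched on both strands. The MYB sequence AACTG was in 7 of the 10 promoters, from 6 genes (44.8% of all promoters). The RUNX sequence TGTGGT was in 4 of the 10, from 4 genes (16.8%), and the C/EBP sequence TTNNGNAA in 4, from 3 genes (40.7%). The GATA sequence AGATAA was in none (11.2%). In Prtn3, AACTG and AGGAAGT lay 104 and 94 bases before the start. These are matches of letters only. Of the 4 genes that share AGGAAGT, 2 rose in R882H and 2 did not pass the test, as given below.

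Each library held between 5470330 and 5921985 counts. Counts come from a 3′ tag protocol (QuantSeq), in which a transcript gives reads near its poly(A) tail, so levels are given as CPM, counts scaled by the total of each library after TMM normalisation, with no length correction. Calls are from edgeR's quasi-likelihood test, adjusted by the Benjamini-Hochberg method over all 11444 tested genes with calls made below 0.05; "rose" and "fell" are kept for called genes, always in R882H relative to EV. At that threshold 38.8% of tested genes were called, 19.3% higher and 19.4% lower, and the median log2 fold change (R882H over EV) of all tested genes was 0.01. The libraries of the groups did not overlap for 69.1% of tested genes. Counts given 4 at a time run from EV replicate 1 to R882H replicate 2. Those of Dnmt3a were 264, 270, 254 and 239; 3′ tags need not cover a transgene, so this does not check the labels. The Y-linked genes Ddx3y (counts of 0, 2, 65 and 41) and Eif2s3y (1, 0, 26 and 29) were at or near 0 in EV and present in R882H, while Xist had 1463, 1438, 1880 and 1509 counts. Of 12 tested mitochondrial and immediate early genes, read as signs of RNA quality, 3 were higher and 2 lower (1 and 1 without R882H replicate 1), and the 13 listed summed to 225319, 230201, 199615 and 231581 counts. Their part in the results was not tested. A difference in the source of the cells and the effect of the vector therefore cannot be told apart in any comparison below. Nor can more cells of a type and more RNA per cell be told apart in bulk RNA.

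Myeloperoxidase changed most among the 8 genes. Mpo (ENSMUSG00000009350, mm10 chromosome 11, 87793581 to 87804413) had 30.4 and 34.9 CPM in the EV libraries and 1213 and 1270.4 CPM in the R882H libraries. Both R882H libraries lay far above both EV libraries, and the libraries of a group were close together. Mpo rose 37.9-fold (95% interval 29.9 to 48.2; log2 fold change 5.25 ± 0.17 SE, edgeR adjusted p = 2.45e-23). By mean CPM Mpo was gene 5178 of the tested genes in EV and gene 100 in R882H. Of the closest relatives of Mpo, the eosinophil peroxidase gene Epx had no counts, and the secretory peroxidase gene Lpo had 3, 2, 0 and 0.

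Of the 3 serine protease genes, only that of cathepsin G rose. The cathepsin G transcript was 1.53-fold higher (1.25 to 1.87). Ctsg (ENSMUSG00000040314, chromosome 14, 56099881 to 56102574) had 846 and 677 CPM in EV and 1171 and 1159 CPM in R882H. On the log2 scale the change was 0.61 ± 0.14 (edgeR adjusted p = 0.000875). Its EV libraries differed more from each other than its R882H libraries did, and the log2 fold change was 0.78 without EV replicate 1 and 0.46 without EV replicate 2.

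RNA of proteinase 3, the autoantigen of granulomatosis with polyangiitis, was abundant in both groups. Prtn3 (ENSMUSG00000057729, chromosome 10, 79874476 to 79883174) had 412 and 425 CPM in EV and 403 and 409.5 CPM in R882H. The groups lay side by side with a gap smaller than the spread within EV. The log2 fold change was −0.04 ± 0.13 (edgeR adjusted p = 0.821), and the 95% interval of the fold was 0.806 to 1.17, so a change as large as that of Ctsg lies outside it. Exons of Prtn3 overlap those of Plppr3, and reads in the shared stretch cannot be told apart. That stretch lies where both genes start, 0.158 kb apart on opposite strands, and not at the 3′ end of Prtn3.

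RNA of neutrophil elastase, whose gene is mutated in severe congenital and cyclic neutropenia, was low in all 4 libraries. Elane (ENSMUSG00000020125, chromosome 10, 79886247 to 79888215) had 32, 23, 36 and 48 counts, which is 5.87 and 4.06 CPM in EV and 6.02 and 8.43 CPM in R882H. The lower R882H library and the higher EV library nearly met. The log2 fold change was 0.54 ± 0.31 (edgeR adjusted p = 0.177) with a 95% interval of the fold from 0.933 to 2.26, so that no change and a rise to the upper end both lie within the interval at this depth.

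Elane and Prtn3 are neighbours on chromosome 10, with starts 11.8 kb apart, yet they differed widely in level. Within a library, Prtn3 had 70.3 and 104.6 times the CPM of Elane in EV and 66.9 and 48.6 times in R882H. The ratio of Mpo to each protease gene was higher in both R882H libraries than in both EV libraries. Mpo had 0.0738 and 0.0823 times the CPM of Prtn3 in EV and 3.01 and 3.10 times in R882H. Against Ctsg it had 0.0360 and 0.0516 times in EV and 1.04 and 1.10 times in R882H. Against Elane it was above 1 in both groups, at 5.19 and 8.61 times in EV and 201 and 151 times in R882H. The 3 protease genes together, at 1580.2 and 1577 CPM in R882H, still stood above Mpo there. The ratio of Ctsg to Prtn3 moved less, from 2.05 and 1.59 in EV to 2.91 and 2.83 in R882H.

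**Figure D1:**
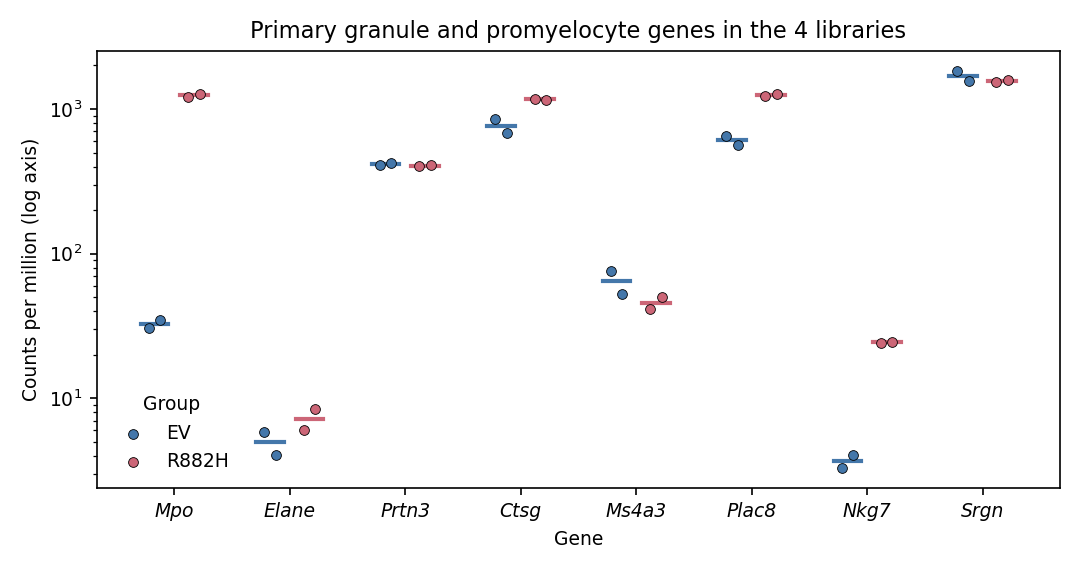
CPM (log axis) of the 8 genes in each library, with points for the 2 EV and 2 R882H libraries and bars for the group means. The Mpo points stand at 30.4 and 34.9 CPM in EV and at 1213 and 1270.4 CPM in R882H, while the Prtn3 and Srgn points of the groups lie close together.

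Serglycin was the most abundant of the 8 genes in both groups. Srgn (ENSMUSG00000020077, chromosome 10, 62493833 to 62527451) had 1840.5 and 1562 CPM in EV and 1546 and 1581 CPM in R882H. It was the only one of the 8 genes whose groups overlapped, its log2 fold change being −0.12 ± 0.14 (edgeR adjusted p = 0.536) with a 95% interval of the fold of 0.750 to 1.13. Mpo transcripts therefore went from 0.0165 and 0.0224 per Srgn transcript in EV to 0.785 and 0.803 in R882H, on the CPM scale.

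The promyelocyte and progenitor genes Plac8, Nkg7 and Ms4a3 moved in both directions. Plac8, which encodes a small cysteine-rich protein of myeloid and lymphoid progenitors (ENSMUSG00000029322, chromosome 5, 100553725 to 100572245), had 649.5 and 566 CPM in EV and 1237 and 1264 CPM in R882H. The R882H libraries were both above the EV libraries, and Plac8 rose 2.06-fold (1.69 to 2.51; log2 fold change 1.04 ± 0.14, edgeR adjusted p = 3.09e-07).

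Nkg7, a membrane protein of cytotoxic granules that myeloid cells also express (ENSMUSG00000004612, chromosome 7, 43437073 to 43438249), had 18 and 23 counts in EV and 144 and 140 counts in R882H. These are 3.30 and 4.06 CPM in EV and 24.1 and 24.6 CPM in R882H, with no overlap. Nkg7 rose 6.57-fold (4.65 to 9.28; log2 fold change 2.72 ± 0.25, edgeR adjusted p = 4.54e-11). Of 18 markers of cytotoxic lymphocytes, none had enough counts to be tested. Of these, 11, including the defining genes Gzma, Gzmb, Prf1, Ncr1 and Cd3e, had 0 counts in all 4 libraries, and the 18 together had 0, 1, 8 and 8 counts, higher in R882H as Nkg7 was.

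Ms4a3, a four-span membrane protein used as a marker of granulocyte-monocyte progenitors (ENSMUSG00000024681, chromosome 19, 11629496 to 11640851), fell. It had 76.3 and 53.0 CPM in EV and 41.7 and 50.03 CPM in R882H, so that EV replicate 2 lay close to the R882H libraries. The log2 fold change was −0.49 ± 0.16 (edgeR adjusted p = 0.0117). Leaving out EV replicate 1 ended the call (−0.21, edgeR adjusted p = 0.302), as did leaving out R882H replicate 1 (−0.36, adjusted p = 0.181) and using DESeq2 (adjusted p = 0.0744).

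In all, 4 of the 8 genes rose (Mpo, Nkg7, Plac8 and Ctsg), 1 fell (Ms4a3) and 3 did not pass the test (Elane, Prtn3 and Srgn), beside 38.8% called among all tested genes. The median log2 fold change of the 8 was 0.58. The groups did not overlap for 7 of the 8, beside 69.1% of all tested genes. The same number, 4, rose with each library left out in turn. Together the 8 genes took 0.385% and 0.336% of all counts in EV and 0.569% and 0.562% in R882H. Without Mpo the other 7 took 0.382% and 0.333% in EV and 0.447% and 0.438% in R882H.

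The order of the genes by level also changed. In EV it ran Srgn, Ctsg, Plac8, Prtn3, Ms4a3, Mpo, Elane and Nkg7, and the libraries of neighbours in this order overlapped only for Elane and Nkg7. In R882H it ran Srgn, Plac8, Mpo, Ctsg, Prtn3, Ms4a3, Nkg7 and Elane, with overlap only between Plac8 and Mpo. Mpo moved from the sixth place to the third, level with Plac8.

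**Figure D2:**
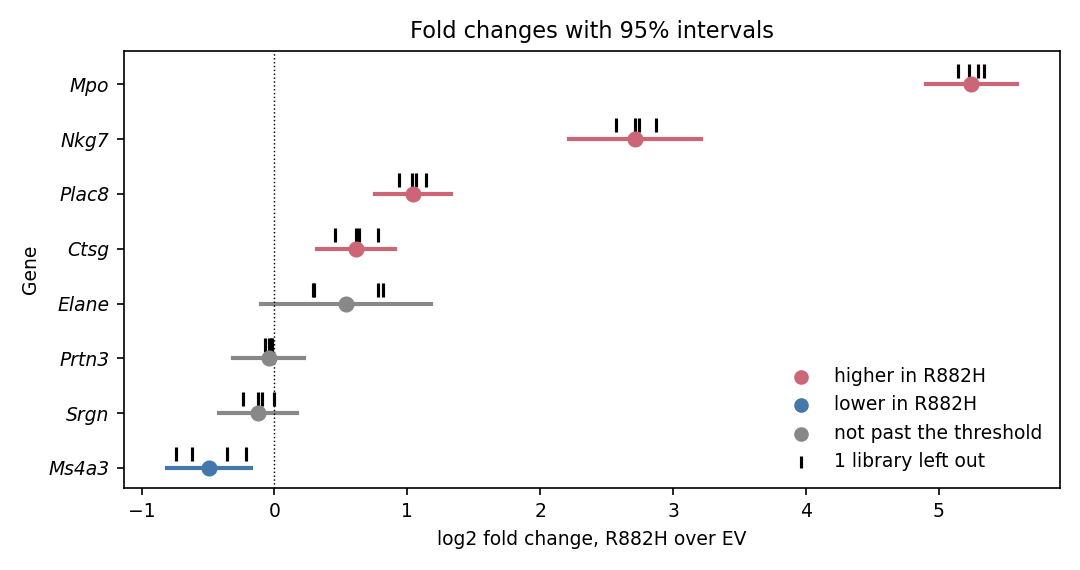
Log2 fold change (R882H over EV) of the 8 genes, with 95% intervals from the edgeR fit as bars and the value with each library left out as ticks. Mpo stands at 5.25 and Nkg7 at 2.72, the intervals of Elane, Prtn3 and Srgn hold 0, and the ticks of Ms4a3 run from −0.74 to −0.21.

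Other proteins of the primary granule were called in both directions. Of 19 genes listed, 17 were tested, 3 rose, 6 fell and 8 were not called (median log2 fold change −0.12). The tetraspanin gene Cd63, a membrane marker of primary granules, had 369 and 315 CPM in EV and 103 and 104 CPM in R882H and fell (log2 fold change −1.72 ± 0.14). The β-glucuronidase gene Gusb (−0.89 ± 0.13) and the serine protease gene Prss57 (−0.88 ± 0.14), whose product NSP4 is stored with elastase, also fell. Prss57 lies near Elane and Prtn3 on chromosome 10 (79781474 to 79790961); it had 65.8 and 68.0 CPM in EV and 34.0 and 38.6 CPM in R882H, and its exons overlap those of Fstl3. The ganglioside activator gene Gm2a (0.81 ± 0.14) and the macrosialin gene Cd68 (1.01 ± 0.17) rose. Without R882H replicate 1 the number that fell was 3. The bactericidal protein gene Bpi and the lysozyme gene Lyz1 had 1 count each over all libraries.

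Most genes of the later, secondary and tertiary granules had too few counts to be tested (15 of 22). The tested ones summed to 3375 and 3253 CPM in EV and 1099 and 1104 CPM in R882H. Most of that was Slpi, which fell, at 3058 and 2921 CPM in EV and 766 and 742.5 CPM in R882H. Of 22 genes listed, 10 had 0 counts in all 4 libraries, among them the defining genes Ltf (lactoferrin), Camp (cathelicidin), Ngp, Cd177 and Mmp9. S100a9, listed with them though its protein is mainly cytosolic, was also at 0. Of the 7 tested, 1 rose and 4 fell, with a median log2 fold change of −1.10, the value of Hp. The lipocalin gene Lcn2 had 164, 224, 3 and 1 counts and fell (log2 fold change −6.58 ± 0.37). The inflammation marker gene Lrg1 had 23, 22, 0 and 0 counts and was at least 15.7-fold lower in R882H, against 3 counts over the group. The haptoglobin gene Hp fell (−1.10 ± 0.18). The collagenase gene Mmp8 was the gene that rose (0.40 ± 0.13, edgeR adjusted p = 0.0145), a call that ended without R882H replicate 1 (adjusted p = 0.0594) and without R882H replicate 2 (adjusted p = 0.188).

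Serpins, cystatins and related inhibitors were called in both directions. The falls of Serpinb12, Slpi and Serpinb10 were larger in size than the rises of Serpinb1a, Cst3 and Cstb. The rise of Serpinb6b, on few counts (log2 fold change 3.42 ± 0.83), was larger in size than the falls of Slpi and Serpinb10. Of 21 serpins, cystatins and related genes, 8 were tested, of which 4 rose and 3 fell, with a median log2 fold change of 0.44; the number that rose was 2 without EV replicate 2 and 1 without R882H replicate 1. Slpi, a secreted inhibitor of elastase and cathepsin G, had 3058 and 2921 CPM in EV and 766 and 742.5 CPM in R882H. Both R882H libraries lay below both EV libraries, and Slpi fell (log2 fold change −1.99 ± 0.15). Serpinb1a, a cytosolic inhibitor of elastase, proteinase 3 and cathepsin G, rose from 386 and 374 CPM to 538 and 547 CPM (0.51 ± 0.13). The cystatin genes Cst3 (0.46 ± 0.13) and Cstb (0.45 ± 0.16), named to complete the count after their values were seen, were also called higher. The Cst3 call ended without R882H replicate 1 (edgeR adjusted p = 0.0578) or 2 (0.0587), and that of Cstb in DESeq2 (0.121) and by edgeR when EV replicate 2 (0.417) or R882H replicate 1 (0.0794) was left out. The remaining call was Serpinb6b, with 2, 0, 14 and 11 counts, a ratio of 11.9 with an exact 95% counting interval of 2.97 to 103.7; it ended without EV replicate 2 (edgeR adjusted p = 0.0652). Serpinb12 had 1293, 1336, 5 and 2 counts and fell (−8.57 ± 0.25), and Serpinb10 fell as well (−1.82 ± 0.46). Exons of Slpi overlap those of the microRNA gene Mir7678.

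The NADPH oxidase makes the superoxide from which the substrate of myeloperoxidase forms. Of 10 oxidase genes, 9 were tested, 2 rose and 1 fell, with a median log2 fold change of 0.25. The gp91phox gene Cybb, the catalytic subunit, had counts of 0, 0, 5 and 0. Its partner gene Cyba fell from 94.1 and 98.3 CPM to 55.5 and 49.0 CPM (log2 fold change −0.88 ± 0.14). Cybc1, a chaperone of the complex, rose (0.71 ± 0.14), and its exons overlap those of Hexdc. The other rise, of the small GTPase gene Rap1a (0.34 ± 0.14, edgeR adjusted p = 0.0482), ended in 7 of the 11 alternatives run, with adjusted p between 0.0522 and 0.412, including without EV replicate 2 (0.356) and without R882H replicate 1 (0.412).

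Genes that fold, sort and anchor granule proteins were called in both directions. Of 13 endoplasmic reticulum folding genes, 1 rose and 6 fell (median −0.31). The protein disulphide isomerase gene Pdia3, whose exons overlap those of Catsper2, fell (−0.90 ± 0.13). The number that fell was 2 without R882H replicate 1 and 1 without R882H replicate 2, the number that rose was 2 without EV replicate 1, and none rose without either R882H library. The list for granule sorting and release held 27 genes, all tested, of which 2 rose and 6 fell (median −0.23). It included Cxcr4, G6pc3 and Gfi1, which do not themselves sort or release granules. Gfi1 is counted again among the regulators below. The SNARE gene Vamp8 (−0.82 ± 0.14) and the glucose-6-phosphatase gene G6pc3 (−0.80 ± 0.14), which is mutated in a severe neutropenia, fell, and the chemokine receptor gene Cxcr4 rose (1.63 ± 0.16). The number that fell was 3 without R882H replicate 2, and 1 rose without R882H replicate 1; DESeq2 called 3 lower and 1 higher. Of 25 genes that build the glycosaminoglycan chains of serglycin, 22 were tested, 6 rose and 3 fell (median 0.12). The sulphotransferase gene Chst15, which makes the chondroitin sulphate E found on serglycin, had 1.10 and 1.77 CPM in EV and 14.9 and 16.5 CPM in R882H (3.43 ± 0.33). Ndst1 of heparan sulphate (−1.94 ± 0.23) and Csgalnact1 of chondroitin chain initiation (−1.31 ± 0.21) fell, and Papss2, which makes the sulphate donor, rose (0.90 ± 0.14).

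**Figure D3:**
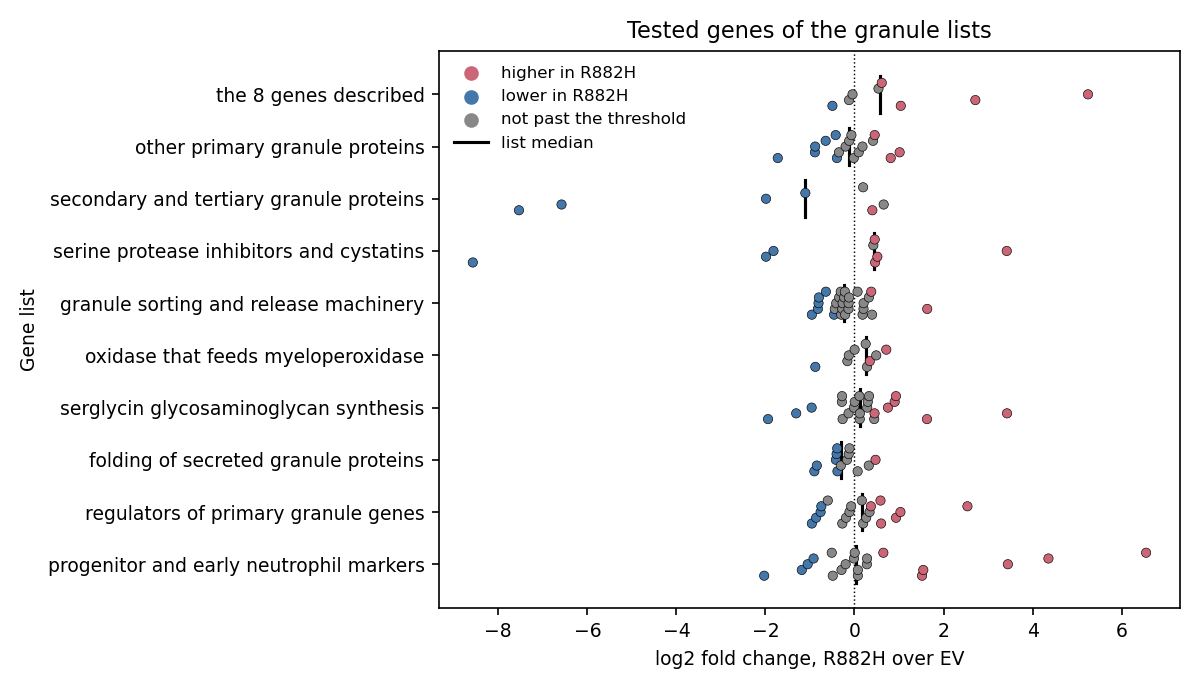
Log2 fold change (R882H over EV) of every tested gene of the granule lists, 1 point a gene, coloured by the edgeR call, with list medians as black lines. Mpo lies at 5.25 while the median of the other primary granule proteins is −0.12; the point of Lrg1, which had no counts in R882H, rests on the fit's prior count.

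Regulators known for the primary granule genes also moved in both directions. Of 22 listed, 19 were tested, 6 rose and 4 fell, with a median log2 fold change of 0.17; the number that rose was 3 without R882H replicate 1. Irf8, a factor of monocyte and dendritic cell fate, had 15.0 and 12.9 CPM in EV and 82.7 and 79.5 CPM in R882H and rose (2.54 ± 0.16). Runx1 rose (0.93 ± 0.20). Gfi1, a repressor needed for neutrophil development, had 69.9 and 79.3 CPM in EV and 41.7 and 35.1 CPM in R882H and fell (−0.96 ± 0.14), and its exons overlap those of A430072P03Rik. Cebpa, the factor that starts granulocyte differentiation, fell from 96.5 and 117 CPM to 61.4 and 66.4 CPM (−0.74 ± 0.14), and Gata2 fell (−0.86 ± 0.17). Outside the rule for named genes and chosen after its value was seen, Spi1, which encodes PU.1, had 238 and 197 CPM on average in EV and R882H (−0.27 ± 0.14, edgeR adjusted p = 0.12). Myb, also outside that rule and added with its value known, had 488 and 505 CPM in EV and 665 and 618 CPM in R882H. It rose (0.37 ± 0.13, edgeR adjusted p = 0.0285), and alternative settings were not read for it.

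The genes around each of the 8 were read from the same fit, over gene bodies within 50 kb. Of 52 such neighbours, 20 were tested, 5 rose and 5 fell. Among all tested genes, 19.3% were called higher and 19.4% lower. At the Mpo locus 4 neighbours were tested and 3 rose. Tspoap1, a gene of a peripheral-type benzodiazepine receptor binding protein, starts 33.0 kb upstream of Mpo. It had 5.68 and 9.71 CPM in EV and 208 and 188 CPM in R882H (log2 fold change 4.68 ± 0.18). Mir142hg, the host transcript of the blood microRNA miR-142, starts 38.004 kb upstream and had 15.4 CPM in both EV libraries and 42.2 and 43.0 CPM in R882H (1.47 ± 0.17). Supt4a, 56.0 kb upstream by start sites, rose less (0.45 ± 0.14), and its call ended without EV replicate 2 (edgeR adjusted p = 0.0698) and without R882H replicate 2 (adjusted p = 0.249). Mks1, 59.6 kb downstream, was not called (0.66 ± 0.27, edgeR adjusted p = 0.0507), but was called without EV replicate 2 (1.06, adjusted p = 0.0199), with the replicate number as a block (0.68, adjusted p = 0.0407) and with no filter on low counts (0.67, adjusted p = 0.0478).

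At the other loci, a tested neighbour also rose beside Ctsg and beside Nkg7, as given below. Around Elane and Prtn3, no neighbour rose and 4 of the 6 tested genes besides the pair fell, Ptbp1 (log2 fold change −0.60 ± 0.13), Gm17134 (−0.62 ± 0.13), Med16 (−0.49 ± 0.19) and R3hdm4 (−0.42 ± 0.13). Ptbp1 and Gm17134 share exon positions and had nearly the same counts (1856, 2221, 1415 and 1396, against 1814, 2173, 1376 and 1352). Their 2 falls are therefore not separate results, here or among all neighbours. Of all tested genes, 19.4% were called lower. Cfd, the complement factor D gene 4.61 kb from Elane, had 1 count in all. Plppr3 (0.00 ± 0.14) and Arid3a (0.33 ± 0.15) were not called, though Arid3a was without R882H replicate 1 (0.53, edgeR adjusted p = 0.0322). Med16 was no longer called in DESeq2 (adjusted p = 0.187), nor by edgeR when EV replicate 2 (adjusted p = 0.254), R882H replicate 1 (0.290) or R882H replicate 2 (0.0724) was left out. The R3hdm4 call ended without EV replicate 2 (edgeR adjusted p = 0.0556), without R882H replicate 1 (0.0623) and without R882H replicate 2 (0.194). Next to Ctsg, in a cluster of granule protease genes, the basophil protease gene Mcpt8 starts 17.3 kb downstream and rose (20.7 and 20.3 CPM in EV, 44.0 and 44.6 CPM in R882H, 1.11 ± 0.17), while Mcpt4, Gzmd and Gzme had no counts. Near Ms4a3, the only tested neighbour, Ms4a6d, fell from 25.1 and 20.7 CPM to 1.67 and 1.05 CPM (−4.04 ± 0.31). Of the 5 tested relatives of Ms4a3 at any position, 4 fell: Ms4a6d, Ms4a6c, Tmem176a and Tmem176b. Tmem176a and Tmem176b are on chromosome 6 and share exon positions with each other. Near Nkg7, Siglecg had 0, 2, 42 and 27 counts, a ratio of 32.9 with an exact 95% counting interval of 8.76 to 277, and the other 3 tested neighbours were not called. None of the tested neighbours of Plac8 (1) or Srgn (3) was called.

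**Figure D4:**
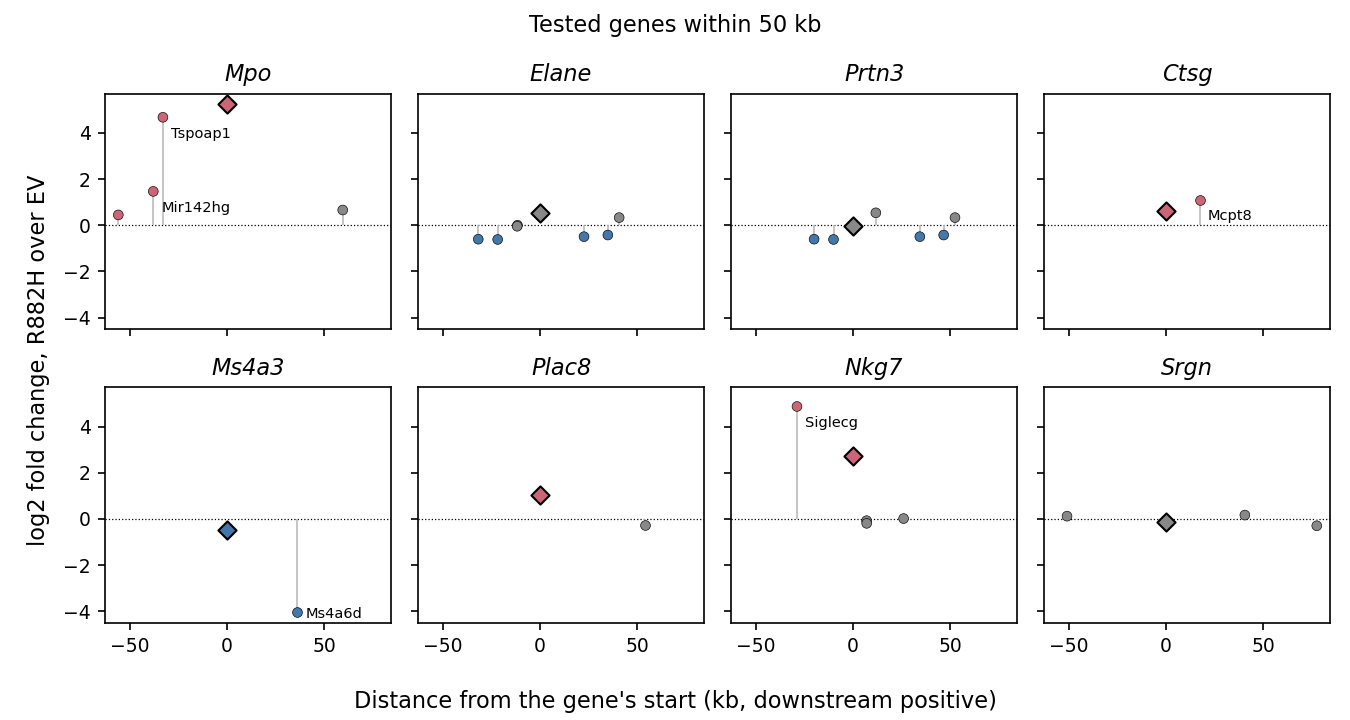
Log2 fold change (R882H over EV) of tested genes within 50 kb of each of the 8 genes, against the distance between start sites in kb, with the gene itself as a diamond at 0; red marks genes called higher, blue lower and grey not called. Tspoap1 stands at 4.68 beside Mpo at 5.25, and the tested genes around Elane and Prtn3, besides that pair, lie between −0.62 (Gm17134) and 0.33 (Arid3a).

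Markers of other cell types moved with the group too, and their part in the values of the 8 genes was not tested. Of 14 early B cell markers, 11 were tested, 10 rose and none fell. Their summed level was 756 and 761 CPM in EV and 2155 and 2127.5 CPM in R882H, and no gene of the list was at 0 in all libraries. Vpreb3 rose (log2 fold change 5.78 ± 0.22), and Vpreb1 had 20.5 and 15.0 CPM in EV and 399 and 378 CPM in R882H, with exons that overlap those of Top3b. Of 15 basophil and mast cell markers, 6 were tested, 5 rose and 1 fell, with a summed level of 120.3 and 134 CPM in EV and 501 and 500.3 CPM in R882H. The carboxypeptidase gene Cpa3 rose (3.74 ± 0.15), and the defining mast cell genes Tpsb2, Tpsab1, Cma1 and Fcer1a had 0 counts in all libraries.

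Markers of monocytes, of which 7 of 16 were tested, gave 3 that rose and 3 that fell. Their summed levels were 163 and 162 CPM in EV and 377 and 335 CPM in R882H. Most of that R882H level was F13a1, at 35.9 and 34.8 CPM in EV and 218 and 185 CPM in R882H. Ccr2 also rose, while Cd14, Adgre1 and Ms4a6c fell. The macrophage genes C1qa, C1qb, C1qc and Mrc1 were at 0. Of 10 eosinophil markers only Siglecf was tested. It was not called (0.56 ± 0.24), but was without EV replicate 2 (0.86, edgeR adjusted p = 0.0347), and Epx, Ear1, Ear2, Ear6, Ccr3 and Il5ra were at 0. Of 10 plasmacytoid dendritic cell markers 4 were tested, 3 rose and 1 fell (155 and 151 CPM summed in EV, 257 and 238 CPM in R882H), with Siglech at 0. Of 15 erythroid and megakaryocyte markers 6 were tested, 1 rose and 2 fell, with 1073 and 883 CPM summed in EV and 35.6 and 30.4 CPM in R882H. Most of that EV level was the platelet chemokine gene Pf4, at 1033 and 844 CPM, and Hba-a1 and Epor were at 0. The rise, of the integrin gene Itga2b, ended without R882H replicate 1 (edgeR adjusted p = 0.0514) and in DESeq2 (0.054).

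The labelled cell type was checked on progenitor markers. Of 23 markers of granulocyte-monocyte progenitors and early neutrophils, 20 were tested, 6 rose, 4 fell and 10 were not called (median log2 fold change 0.04). Cd34 had 1288 and 1319 CPM in EV and 1347 and 1404 CPM in R882H, and Flt3 rose from 417 and 395 CPM to 680.5 and 593 CPM (0.65 ± 0.14). Other markers of the list were far apart between the groups. Cd24a, a surface glycoprotein gene, had 4, 2, 306 and 308 counts (6.55 ± 0.30), and Cd48, of the SLAM family, had 14, 12, 302 and 263 (4.36 ± 0.24). The glutathione transferase gene Gstm1 fell from 166 and 219 CPM to 49.0 and 45.3 CPM (−2.03 ± 0.15). The neutrophil surface marker gene Ly6g was at 0 in all 4 libraries. The stem and progenitor surface gene Cd93, at 29.2 and 36.9 CPM in EV and 388 and 332 CPM in R882H, was the gene most like Mpo by Euclidean distance of log2 CPM over the 4 libraries, out of 10319 candidates with an established symbol. Its distance was 2.54, the largest nearest-gene distance among the 8 genes. For Nkg7 the nearest gene was the phosphatase gene Dusp5 at a distance of 0.29 (3.85 and 3.71 CPM in EV, 23.8 and 27.6 CPM in R882H). For Prtn3 it was the 14-3-3 gene Ywhab at 0.08 and for Srgn the mRNA binding protein gene Serbp1 at 0.20. Distances were 0.34 from Ctsg to Hint1, 0.49 from Plac8 to Rpl35a, 0.30 from Ms4a3 to Ndel1 and 0.13 from Elane to Zfp780b.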

How the data were processed

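RNA of 4 libraries (2 EV, 2 R882H) was measured by QuantSeq 3′ tags. The authors deposited raw counts per Ensembl gene, 1 column a library. The build mm10 and the tools HISAT2 2.0.4, featureCounts of Subread 2.0.0, cutadapt 1.14, bcl2fastq 2.17.1.14, limma 3.48.3 and edgeR 3.34.0 are named per the submitters' processing notes. Annotation and strand setting: not given in the sources used here, so reads of overlapping genes cannot be told apart. GENCODE M21 gave a symbol and position for 52489 of 52636 IDs.

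In R 4.3.3, the table was filtered with filterByExpr on the groups, scaled by TMM and fitted by edgeR 4.0.16 (robust quasi-likelihood test, Benjamini-Hochberg adjustment), after the script was tested on simulated data. The SE is the size of the log2 fold change divided by √F; 95% intervals use the fit's degrees of freedom. CPM are on TMM-scaled library sizes; log2 CPM used a prior count of 2. Counting intervals and floors (3 counts) cover counting error only. Exon overlaps count genes with at least 10 counts.

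Named genes were the 8 genes, up to 4 called genes of each list with the smallest p and up to 2 called the other way, the 3 most counted of other cell types, each gene's nearest gene by log2 CPM, and tested neighbours; some that meet the rule are not named here. The members and lists were chosen with earlier results of these data known. Alternatives were other scalings, filters, DESeq2 1.42.0, a replicate block and leaving out each library. Protein sequences were not analysed here.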

Additional observations from a re-analysis of the deposited data

How the results depend on the processing

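Of the 8 genes, Mpo, Nkg7, Plac8 and Ctsg stayed called higher, and Elane, Prtn3 and Srgn stayed uncalled with the same sign, under each of the 11 alternatives. Ms4a3 was called lower except in DESeq2 (log2 fold change −0.50) and without EV replicate 1 or R882H replicate 1, so that 0 of the 8 were called lower there. With 1 library left out, the log2 fold changes ran from 5.14 to 5.34 for Mpo, 0.29 to 0.82 for Elane, −0.07 to −0.02 for Prtn3, 0.46 to 0.78 for Ctsg, −0.74 to −0.21 for Ms4a3, 0.94 to 1.138 for Plac8, 2.57 to 2.87 for Nkg7 and −0.24 to −0.0035 for Srgn.

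Over all genes, leaving out 1 library gave 1508 to 2065 higher and 1446 to 2168 lower calls, beside 2213 and 2222 with all 4, and DESeq2 gave 1401 higher. The lone library of a group is then assumed to vary like the other group. The cause of these differences was not tested. Among the genes named by the rule or near the 8, signs turned only for genes that were not called. Plppr3 (0.0020 with all libraries) had −0.0053 with DESeq2 size factors, −0.017 by library size, −0.00098 under a filter of 10 counts in each library of either group, −0.0049 in DESeq2 and −0.22 to 0.25 with 1 library left out. With 1 library left out, Gm45233 ran from −0.37 to 0.0015, Kif1bp from −0.085 to 0.35, Vsig10l from −0.034 to 0.063, Ywhab from −0.098 to 0.034 and Serbp1 from −0.21 to 0.12.

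With the replicate number as a block, Mpo had a log2 fold change of 5.25, Ctsg 0.62 and Ms4a3 −0.48, and the calls of the 8 genes did not change; 2196 genes were called higher and 2229 lower. Same-numbered libraries did not deviate together (r = −0.003 across genes), so the number was not taken as a pairing. Counts of Elane, 23 to 48 a library, limit what can be said of it.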
